A study of Mus musculus with 9 samples.

Results

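The miR-183 cluster is a group of 3 microRNA (miRNA) hairpins, Mir183, Mir96 and Mir182, that lie side by side on mouse chromosome 6. Its members were taken by name, as every row of the deposited count table whose name starts with mmu-miR-182-, mmu-miR-183- or mmu-miR-96-. This gave 6 of the 1140 rows of the table, a 5p and a 3p arm for each of the 3 hairpins. Livers of male C57BL/6 mice were compared in 3 groups of 3 animals. Control mice received intraperitoneal normal saline for 8 weeks, TAA mice received intraperitoneal thioacetamide (TAA, a hepatotoxin used to induce fibrosis) for 8 weeks, and recovery mice received TAA for 8 weeks and were then left without it for another 8 weeks. The time after withdrawal made recovery mice 8 weeks older at sampling, and recovery and age cannot be told apart. Whole liver tissue was sequenced as small RNA, with total counts between 9071847 and 12983378 per library.

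A miRNA hairpin is cut into a 5p and a 3p strand, and the strand that is kept guides a silencing complex to messenger RNAs that pair with its seed, bases 2 to 8. The miR-183 cluster is transcribed as a single precursor and is best known from sensory cells of the eye and the inner ear, where a mutation in the seed of miR-96 causes hearing loss. It is also expressed in many epithelia and is often raised in carcinomas, including those of the liver. The sequences of the members are shown first because the 3 kept strands have similar but not identical seeds. All were taken from RefSeq (GRCm38.p6), which held a mature sequence for 6 of 6 members and for 935 of the 1140 rows. The 5p arms are given here 5′ to 3′, with the seed in capitals.
mmu-miR-183-5p: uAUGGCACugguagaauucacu
mmu-miR-96-5p: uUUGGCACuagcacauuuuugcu
mmu-miR-182-5p: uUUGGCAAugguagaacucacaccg

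Counting positions from 1 at the 5′ end, the seed of mmu-miR-96-5p differs from that of mmu-miR-183-5p by A2U. The seed of mmu-miR-182-5p differs from that of mmu-miR-96-5p by C8A, and from that of mmu-miR-183-5p by A2U and C8A. Thus each member has its own seed, and no other row with a known sequence shared bases 2 to 8 with any of the 3. Over the whole strand, mmu-miR-183-5p and mmu-miR-182-5p are the closer pair, with the same base at 18 of 22 positions and the run ugguagaa in common. The pair of mmu-miR-183-5p and mmu-miR-96-5p had the same base at 13 of 22 positions, and the pair of mmu-miR-96-5p and mmu-miR-182-5p at 12 of 23. The longest run that a 5p arm shared with a row outside the cluster was 10 bases, between mmu-miR-183-5p and mmu-miR-470-5p. The 3p arms, shown in the same way for the strand comparison further on, had unrelated seeds.
mmu-miR-183-3p: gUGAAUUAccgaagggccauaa
mmu-miR-96-3p: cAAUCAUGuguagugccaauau
mmu-miR-182-3p: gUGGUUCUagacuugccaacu

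In GRCm38.p6 the hairpins are on the minus strand in the order Mir183 (chr6:30169668-30169737), Mir96 (chr6:30169446-30169551) and Mir182 (chr6:30165918-30165992). Mir183 and Mir96 are 116 bases apart, Mir96 and Mir182 are 3453 bases apart, and all 3 fit in 3820 bases. In GENCODE M21 no annotated gene contains any of the hairpins, so they are intergenic. The nearest gene on the upstream side is the long noncoding RNA Rncr4, on the plus strand 3156 bases from Mir183. On the other side, the protein-coding gene Nrf1 ends 12460 bases from Mir182. The hairpins are printed here to show where each mature strand lies, with the 5p arm and then the 3p arm in capitals.
Mir183: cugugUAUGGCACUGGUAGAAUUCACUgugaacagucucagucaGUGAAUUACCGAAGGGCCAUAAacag
Mir96: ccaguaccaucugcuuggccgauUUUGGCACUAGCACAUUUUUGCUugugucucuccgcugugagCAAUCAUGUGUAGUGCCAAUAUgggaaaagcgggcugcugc
Mir182: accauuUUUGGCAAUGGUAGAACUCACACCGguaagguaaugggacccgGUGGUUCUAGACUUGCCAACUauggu

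The 5p arms of all 3 hairpins were higher in TAA livers than in control livers and were back near the control level in recovery livers. Levels are given as counts per 1000000 counts (CPM) scaled between libraries by TMM, a method that sets the scale so that the bulk of miRNAs do not differ. The sum of the 3 arms was 230 ± 14.1 CPM in control, 827 ± 312 CPM in TAA and 240.5 ± 32.6 CPM in recovery livers (mean ± SD, n = 3 each). In the counts as deposited, without scaling, the cluster took 0.0176% of the counts in control, 0.127% in TAA and 0.0204% in recovery livers. These are values of bulk tissue, in which a changed number of cells of a type and a changed amount of RNA per cell cannot be told apart.

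mmu-miR-182-5p was the most abundant member. Its level was 149, 137 and 156 CPM in control replicates 1 to 3, 741, 411 and 385 CPM in TAA replicates 1 to 3, and 124, 167 and 165 CPM in recovery replicates 1 to 3. Every TAA liver was above every control and recovery liver, and the control and recovery values overlapped. By mean CPM it ranked 83 of 1140 rows in control, 48 in TAA and 88 in recovery livers.

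mmu-miR-183-5p, which shares most of its 3′ sequence with mmu-miR-182-5p, was found at a lower level. It was at 72.2, 58.3 and 65.4 CPM in control, 353, 211 and 194 CPM in TAA, and 65.6, 80.1 and 70.4 CPM in recovery replicates 1 to 3. Again the TAA livers did not overlap with the others, and the control and recovery ranges did. It ranked 109 in control, 68 in TAA and 110 in recovery livers.

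mmu-miR-96-5p, the member whose seed is known from hereditary deafness, was the least abundant of the 5p arms. Its level was 15.9, 19.0 and 18.2 CPM in control, 93.1, 47.2 and 45.9 CPM in TAA, and 13.8, 18.4 and 17.5 CPM in recovery replicates 1 to 3. The groups stood in the same relation as for the other arms, with TAA apart and control and recovery overlapping. In counts it was read 137 to 164 times in a control library, 684 to 1510 times in a TAA library and 129 to 200 times in a recovery library.

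TAA replicate 1 was the highest library for each of the 3 arms. It was at 1.86 times the mean of TAA replicates 2 and 3 for mmu-miR-182-5p, 1.74 times for mmu-miR-183-5p and 2.0 times for mmu-miR-96-5p. Accordingly, the coefficient of variation of the CPM was 34.6% to 43.3% in TAA livers, and 6.57% to 15.9% in control and recovery livers. The same liver was also highest of the TAA group for the summed miR-200 family, another group of epithelial miRNAs, at 5692 CPM compared with 3426 and 3790 CPM. It was also highest for the summed hepatocyte miRNAs, at 178171 CPM compared with 157847 and 149299 CPM, and for a list of other epithelial and sensory miRNAs, at 3291 CPM compared with 2511 and 2397 CPM. For summed leukocyte miRNAs it was in the middle, at 330 CPM compared with 298 and 339 CPM. The same held for stellate cell miRNAs, at 35106 CPM compared with 18070 and 39555 CPM. It also held for endothelial miRNAs, at 6111 CPM compared with 5699 and 6894 CPM, and for red cell miRNAs, at 395 CPM compared with 212 and 483 CPM. In TAA livers the stellate cell sum was mostly mmu-miR-143-3p (mean 29275 CPM). The sum of other epithelial and sensory miRNAs was mostly mmu-miR-7a-5p (mean 2218 CPM). The order of the livers in these sums thus describes those rows more than the rest. Another stellate cell row, mmu-miR-199a-5p, listed below for its likeness to the cluster, was highest in TAA replicate 1 (818 CPM compared with 452 and 584 CPM). The tests and ratios of the cluster are given below with and without TAA replicate 1.

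**Figure D1:**
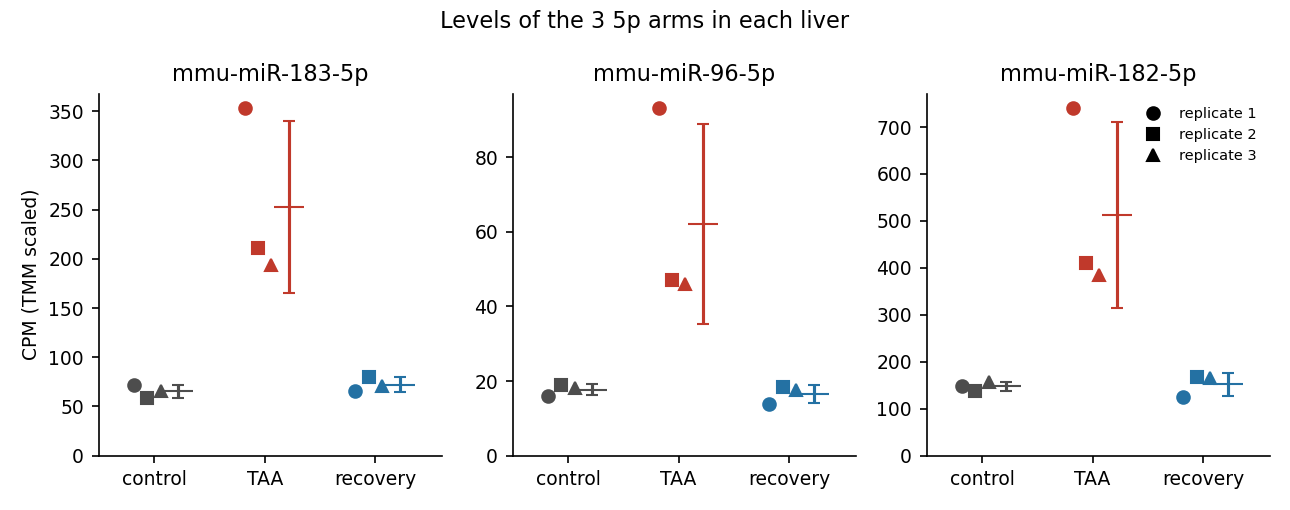
Level of mmu-miR-183-5p, mmu-miR-96-5p and mmu-miR-182-5p in each of the 9 livers, in CPM scaled by TMM on linear axes that start at 0 and differ between panels. Symbols are single livers by replicate number, and the horizontal line and bar are the mean and SD of the 3 livers of a group; the 3 TAA livers lie above all others in every panel, and TAA replicate 1 lies above TAA replicates 2 and 3.

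To identify members that differed between fibrotic and control livers, the counts were tested with the quasi-likelihood F test of edgeR over all 420 rows that passed a filter on low counts. Rows with an FDR (false discovery rate) under 0.05 and at least 2-fold change are called differentially expressed miRNAs (DEMs). All 3 of the 5p arms were DEMs raised in TAA livers, in a comparison in which 25% of the tested rows were raised DEMs and 41.7% were DEMs of either direction. mmu-miR-183-5p was raised by 1.85 ± 0.23 on the log2 scale (SE; 95% interval 1.32 to 2.38; edgeR FDR = 0.000585), which is 3.61-fold. mmu-miR-96-5p was raised by 1.71 ± 0.27 (95% interval 1.07 to 2.35; edgeR FDR = 0.00159). mmu-miR-182-5p was raised by 1.70 ± 0.24 (95% interval 1.14 to 2.25; edgeR FDR = 0.000997). The intervals of the 3 arms overlapped widely.

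The size of this change was moderate for this comparison. Ordered by log2 fold change from the highest, mmu-miR-183-5p, mmu-miR-96-5p and mmu-miR-182-5p stood at places 76, 82 and 83 of the 420 tested rows. For each arm the lowest TAA value was above the highest control value, as was the case for 39.3% of all tested rows. Without TAA replicate 1 the log2 fold changes of mmu-miR-183-5p, mmu-miR-96-5p and mmu-miR-182-5p were 1.60, 1.36 and 1.40, and all 3 remained DEMs.

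The scaling between libraries set the size of the change but not its direction. When libraries were scaled by their total counts, as in the TPM values of the deposited table, the log2 fold changes were 2.96 for mmu-miR-183-5p, 2.82 for mmu-miR-96-5p and 2.81 for mmu-miR-182-5p. The median of all tested rows moved from 0.11 with TMM to 1.23 with library totals, and the DEMs from 105 raised and 70 lowered to 241 raised and 4 lowered. Relative to the median, the arms were thus raised by similar amounts under either scaling. This follows from the arithmetic, since a change of scaling shifts the log2 fold changes of all rows by nearly the same amount. Beside these values, the hepatocyte miRNA mmu-miR-122-5p, among the most abundant rows of the table, took a smaller share of the counts in TAA livers. Its log2 fold change was -1.96 with TMM and -0.84 with library totals.

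To examine the members after TAA withdrawal, recovery livers were compared with TAA livers in the same way, over 440 tested rows. All 3 of the 5p arms were DEMs lowered in recovery livers, in a comparison in which 14.5% of the tested rows were lowered DEMs 10.2% were raised and 24.8% were DEMs of either direction. mmu-miR-96-5p fell by 1.91 on the log2 scale (SE 0.29; 95% interval -2.58 to -1.24; edgeR FDR = 0.00207). mmu-miR-183-5p fell by 1.82 (SE 0.23; 95% interval -2.35 to -1.28; edgeR FDR = 0.000943). mmu-miR-182-5p fell by 1.76 (SE 0.26; 95% interval -2.37 to -1.15; edgeR FDR = 0.00205). They stood at places 33, 37 and 41 of 440 from the lowest log2 fold change.

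No recovery liver reached the level of a TAA liver for any 5p arm, and 28.9% of all tested rows had recovery values wholly below the TAA values. Without TAA replicate 1 the log2 fold changes of mmu-miR-96-5p, mmu-miR-183-5p and mmu-miR-182-5p were -1.47, -1.47 and -1.37, and all 3 remained DEMs. With library totals they were -2.76, -2.67 and -2.61, while the median of all tested rows moved from -0.12 to -0.98 and the DEMs from 45 raised and 64 lowered to 4 raised and 203 lowered. This comparison and the previous one share the 3 TAA livers, so that the opposite sign of the changes is not an independent observation.

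Recovery and control livers were then compared directly, over 391 tested rows. None of the 3 arms was a DEM, and none had an unadjusted p below 0.05 with edgeR or was a DEM with DESeq2, in a comparison in which 11.3% of the tested rows were DEMs. The log2 fold change was 0.10 ± 0.14 for mmu-miR-183-5p (SE; 95% interval -0.21 to 0.41; edgeR FDR = 0.780). For mmu-miR-96-5p it was -0.13 ± 0.18 (95% interval -0.54 to 0.28; edgeR FDR = 0.780). For mmu-miR-182-5p it was 0.0062 ± 0.14 (95% interval -0.30 to 0.31; edgeR FDR = 0.986). In fold terms the 3 intervals ran from 0.687 to 1.33, the lower end being that of mmu-miR-96-5p. The control and recovery values overlapped for each arm, whereas in 27.4% of all tested rows they did not. With library totals the log2 fold changes were 0.29, 0.06 and 0.20, with the median of all tested rows at 0.16, and none was a DEM.

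**Figure D2:**
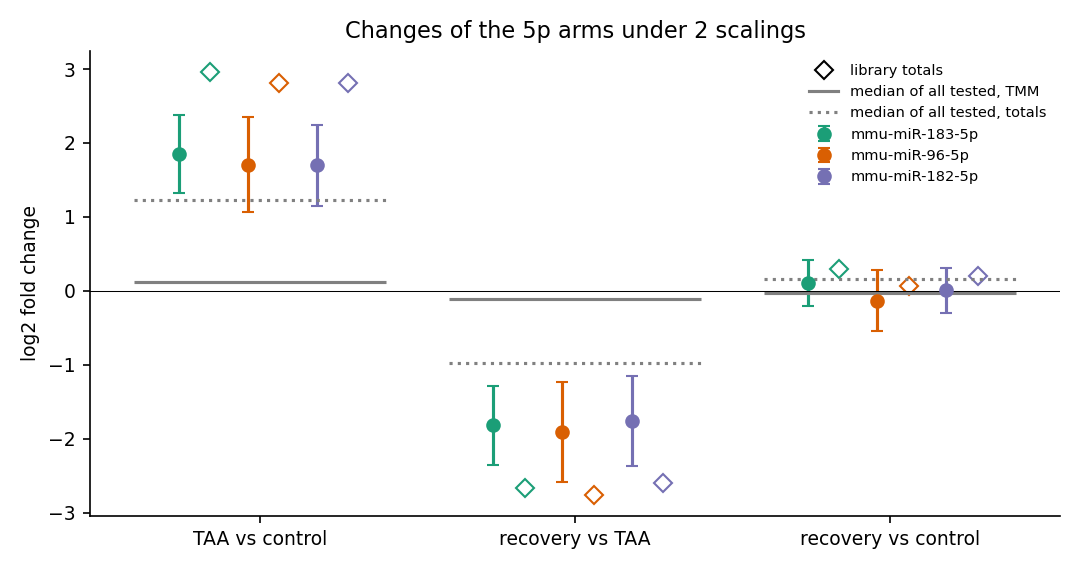
Log2 fold change of the 3 arms in the 3 comparisons. Filled circles with bars are the edgeR estimate with TMM and its 95% interval, open diamonds are the estimate with library totals, and grey lines mark the median of all tested rows under each scaling; the arms lie above the median in TAA vs control, below it in recovery vs TAA, and have intervals that include 0 in recovery vs control.

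The 3p arms were read very rarely. Summed over the 9 libraries, mmu-miR-182-3p was read 26 times, mmu-miR-183-3p 21 times and mmu-miR-96-3p once, and none passed the filter on low counts in any comparison. The counts of mmu-miR-182-3p were 2, 0 and 0 in control, 12, 3 and 8 in TAA, and 0, 0 and 1 in recovery replicates 1 to 3. Those of mmu-miR-183-3p were 1, 0 and 0 in control, 12, 1 and 4 in TAA, and 1, 1 and 1 in recovery replicates. The only read of mmu-miR-96-3p was in TAA replicate 2.

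Each hairpin was therefore represented almost completely by its 5p strand. The 3p share of all reads of a hairpin was 0.134% for Mir183 (21 of 15699; 95% exact binomial interval 0.0828% to 0.204%). It was 0.0803% for Mir182 (26 of 32376; 0.0525% to 0.118%) and 0.0259% for Mir96 (1 of 3859; 0.000656% to 0.144%). For Mir96 the share was 0 of 445 reads in control livers, which allows a share of up to 0.674%, and 0 of 520 in recovery livers, which allows up to 0.577% (3 counts of the total; the exact binomial upper limits are 0.826% and 0.707%). These intervals and limits cover counting error only.

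The few 3p reads were mostly from TAA livers, as were those of the 5p arms. Summed over the hairpins, 41 reads were found in TAA, 3 in control and 4 in recovery livers. Scaled by TMM, the ratio of TAA to control for this sum was 7.55 (95% interval from counting 2.41 to 38.1), and that of TAA to recovery was 6.95 (2.52 to 26.7). TAA replicate 1 held 24 of the 41 reads, and without it the ratios were 4.84 (1.40 to 25.8) and 4.46 (1.45 to 18.2). All 3 control reads were from control replicate 1. These ratios carry no test across mice. Without a filter on low counts, edgeR called mmu-miR-182-3p a DEM in recovery vs TAA (log2 fold change -3.62, FDR = 0.0113) but not in TAA vs control (2.45, FDR = 0.0817), and no other 3p arm was called in any of the 3 comparisons.

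Since the 3 hairpins are close together, the mix of their 5p arms was examined within each library, where no scaling between libraries is needed. mmu-miR-182-5p made up 61.0% to 65.2% of the reads of the 3 arms in the 9 livers, mmu-miR-183-5p 27.2% to 32.2%, and mmu-miR-96-5p 6.71% to 8.87%. The mean share of mmu-miR-182-5p was 64.0% ± 1.11 in control, 61.8% ± 0.527 in TAA and 63.0% ± 2.12 in recovery livers (SD, n = 3). That of mmu-miR-183-5p was 28.3% ± 1.82, 30.8% ± 0.925 and 30.1% ± 2.19. That of mmu-miR-96-5p was 7.73% ± 1.08, 7.41% ± 0.402 and 6.87% ± 0.0860. Thus the mix moved by a few percentage points while the total of the cluster moved several fold.

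The log2 ratios between the arms were compared between groups by an exact two-sided permutation test, whose smallest p with 3 livers against 3 is 0.1. Over 9 comparisons the largest difference was 0.25 on the log2 scale, for mmu-miR-183-5p to mmu-miR-96-5p in recovery vs control (SE 0.18; exact p = 0.3; adjusted p = 0.643). In one of the 9, the ratio of mmu-miR-182-5p to mmu-miR-96-5p, the recovery livers (9.0 to 9.42) did not overlap with the TAA livers (7.95 to 8.71), a difference of 0.14 on the log2 scale (SE 0.04; exact p = 0.1; adjusted p = 0.643). The design cannot reach a p below 0.05, so that these values do not show that the ratios were the same. As a description over the 9 livers, Pearson's r of log2(CPM + 1) between the arms was 0.979 to 0.992, values that include the difference between the groups.

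For comparison with other miRNAs of known cell types, lists of marker miRNAs were examined. The miR-200 family, which keeps epithelial cells from taking on mesenchymal traits and in liver marks bile duct cells, had 9 of its 10 listed rows in the table and 7 in the tests. All 7 were raised DEMs in TAA livers and lowered DEMs in recovery vs TAA, the same directions as the miR-183 cluster, also with library totals and without TAA replicate 1. Among all tested rows, 25% were raised DEMs in TAA vs control and 14.5% were lowered DEMs in recovery vs TAA. Scaled by library totals, these were 241 of 420 and 203 of 440 rows. The median log2 fold change of the 7 miR-200 rows in TAA vs control was 2.70 (range 2.06 for mmu-miR-200c-3p to 2.90 for mmu-miR-200a-5p). That of the 3 arms was 1.71, and that of all 420 rows 0.11. In recovery vs control the median of the miR-200 rows was 0.88 with 1 of 7 a raised DEM, as were 10.5% of all tested rows. That of the 3 arms was 0.0062 with 0 of 3. Scaled by library totals, 4 of 7 miR-200 rows were raised DEMs in this comparison, as were 47 of all 391 tested rows.

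The summed miR-200 family was at 594 to 784 CPM in control, 3426 to 5692 CPM in TAA and 1263 to 1445 CPM in recovery livers. Its recovery livers thus lay between the other groups without overlap, whereas those of the miR-183 cluster overlapped with control. Within each library, the reads of the 3 arms amounted to 32.7%, 36.0% and 30.5% of the miR-200 reads in control replicates 1 to 3. The value was 20.9%, 19.5% and 16.5% in TAA and 16.1%, 18.4% and 17.8% in recovery replicates 1 to 3. Hence every control liver had a higher ratio than any TAA or recovery liver, and the TAA and recovery livers overlapped.

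The log2 ratio of the cluster to the miR-200 family differed by -0.81 ± 0.12 in TAA vs control (SE; exact permutation p = 0.1; adjusted p = 0.15 over 6 comparisons) and by -0.92 ± 0.09 in recovery vs control (exact permutation p = 0.1; adjusted p = 0.15). In recovery vs TAA the difference was -0.12 ± 0.12 (exact permutation p = 0.4). Without TAA replicate 1 the differences that involve TAA livers were -0.88 and -0.04. An exact p of 0.1 is the smallest that this design allows. The sum of the miR-200 family is mostly mmu-miR-200b-3p and mmu-miR-200a-3p. An alternative used the mean of log2(count + 1) over the rows, for both the 3 arms and the 9 miR-200 rows. It gives rows with few counts the same weight. Such rows were mmu-miR-200c-5p (mean 0 CPM in control and 0.07 CPM in TAA livers) and mmu-miR-141-5p (0.12 and 0.29 CPM), both too low to be tested. The difference was then -0.25 in TAA vs control (exact permutation p = 0.5) and -0.58 in recovery vs control (exact permutation p = 0.1). The difference in TAA vs control was thus smaller with this measure, and the part of the low rows in this was not tested.

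**Figure D3:**
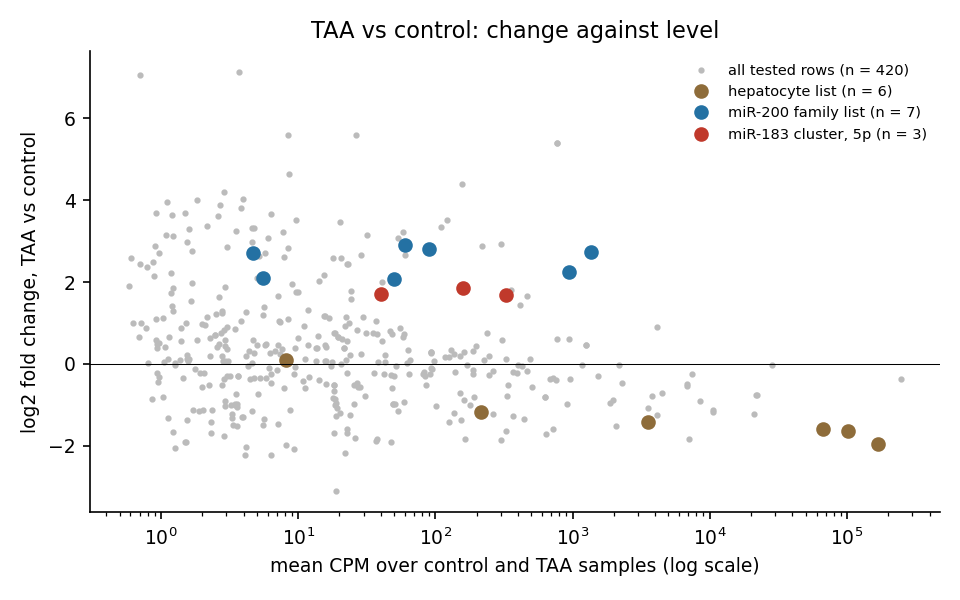
Log2 fold change in TAA vs control (edgeR with TMM) against the mean CPM of the 6 livers compared, on a log axis, for the 420 tested rows. Red points are the 3 arms of the miR-183 cluster, blue points the 7 tested miR-200 rows and brown points the 6 hepatocyte rows; the red points lie between 1.70 and 1.85, below all 7 blue points.

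Markers of other liver cells moved as well. Of the 6 hepatocyte rows, 5 were lowered DEMs in TAA livers (mmu-miR-122-5p lowest, log2 fold change -1.96; mmu-miR-802-5p highest, 0.11), compared with 16.7% of all tested rows. With library totals none of the 6 was a lowered DEM and mmu-miR-802-5p was a raised one, when 4 of all 420 tested rows were lowered and 241 raised. mmu-miR-122b-3p had nearly the same values as mmu-miR-122-5p in every library, and since the counting of reads that match several miRNAs is not given, the level of mmu-miR-122-5p is uncertain. The hepatocyte sum was 516381 to 534985 CPM in control, 149299 to 178171 CPM in TAA and 427082 to 508917 CPM in recovery livers.

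Relative to the hepatocyte reads of the same library, the 3 arms were at 0.0400% to 0.0463% in control, 0.419% to 0.666% in TAA and 0.0400% to 0.0621% in recovery livers. The log2 ratio differed by 3.48 ± 0.23 in TAA vs control and by -3.23 ± 0.30 in recovery vs TAA (SE; exact permutation p = 0.1 and adjusted p = 0.15 for both), and by 3.26 and -3.01 without TAA replicate 1. In recovery vs control the difference was 0.25 ± 0.21 (exact permutation p = 0.4). Thus the difference in this ratio was larger than the scaled change of the cluster itself, and the hepatocyte sum moved in the opposite direction with TMM.

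For the lists that follow, 25% of all tested rows were raised and 16.7% lowered DEMs in TAA livers. When scaled by library totals, 241 of the 420 tested rows were raised and 4 lowered DEMs. With TMM, no list count in TAA livers changed without TAA replicate 1. Of the stellate cell and myofibroblast list, which marks the collagen-producing cells of the liver, 5 of 7 rows were raised DEMs in TAA livers (mmu-miR-199b-5p highest, log2 fold change 2.60; mmu-miR-145a-5p lowest, -0.25), and 5 of 7 were lowered DEMs in recovery vs TAA (14.5% of all tested rows). Its summed level, 25492 to 31123 CPM in control, 18070 to 39555 CPM in TAA and 21886 to 35818 CPM in recovery livers, overlapped between the groups. This sum was mostly mmu-miR-143-3p, with means of 27786, 29275 and 27407 CPM in control, TAA and recovery livers. That row was not a DEM (log2 fold change -0.02 in TAA vs control), and the overlap describes it more than the 5 raised rows. Of the 6 leukocyte rows 2 were raised DEMs in TAA livers (6 with library totals), from 1.65 for mmu-miR-155-5p to 0.30 for mmu-miR-142a-5p, and the summed level was 199 to 228 CPM in control, 298 to 339 CPM in TAA and 161 to 239 CPM in recovery livers. The endothelial pair mmu-miR-126a-3p and mmu-miR-126a-5p had log2 fold changes of -0.55 and -0.81 with TMM, neither a DEM, and both lay above 0 with library totals. Their sum was 8477 to 8951 CPM in control, 5699 to 6894 CPM in TAA and 8347 to 9122 CPM in recovery livers. Of 4 red cell rows, 1 was a lowered DEM in TAA livers (mmu-miR-451a, -1.71) and none with library totals, and their sum was 814 to 1362 CPM in control, 212 to 483 CPM in TAA and 342 to 644 CPM in recovery livers. No row of the hepatocyte, stellate cell, leukocyte, endothelial or red cell list was at 0 in all livers of a group. The part of cell composition in the values of the miR-183 cluster was not tested.

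**Figure D4:**
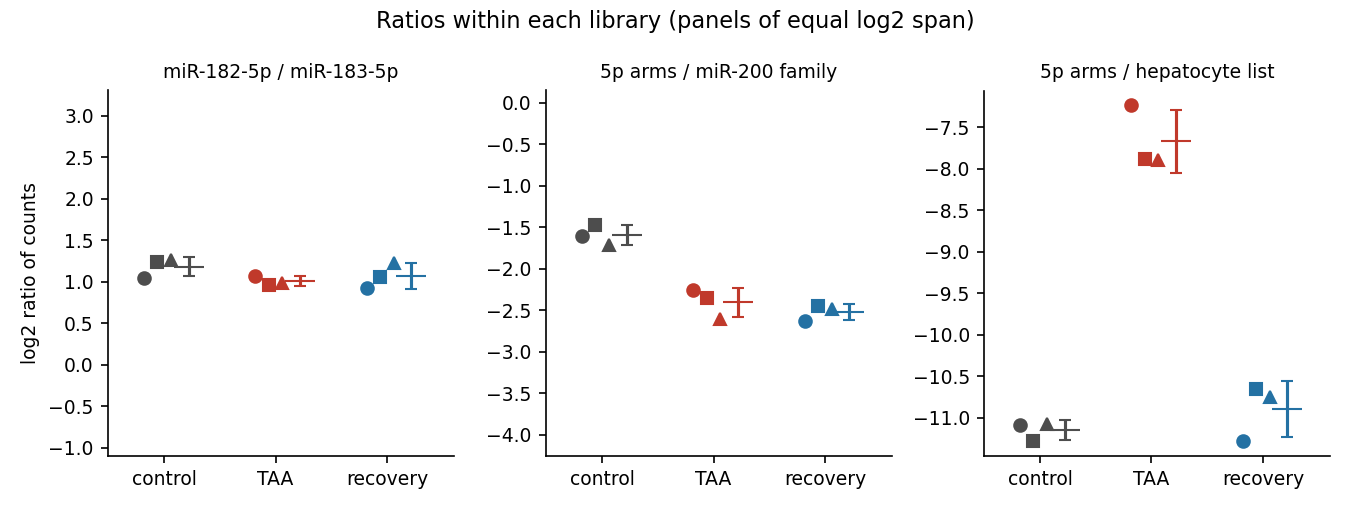
Log2 ratio of counts within each library, with circles, squares and triangles for replicates 1, 2 and 3 and with the mean and SD of the 3 livers of a group. The panels show mmu-miR-182-5p to mmu-miR-183-5p, the 3 arms to the miR-200 family and the 3 arms to the hepatocyte list, each over an axis of the same length; the first ratio overlaps between all groups, the second is highest in control and the third is highest in TAA livers.

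To see whether other miRNAs of the same stretch of chromosome 6 moved in the same way, the rows with a hairpin within 2000000 bases were examined. They came from 4 hairpins, and the nearest, Mir335, is 571562 bases away. mmu-miR-335-3p and mmu-miR-335-5p had log2 fold changes of 0.92 and 0.48 in TAA vs control and were not DEMs, but with library totals they were raised DEMs, at 2.04 and 1.59. The antifibrotic mmu-miR-29a-3p, which targets collagens, was at -0.98 on the log2 scale (0.15 with library totals) and was not a DEM, although it was one with the size factors of DESeq2 in edgeR (-1.03). Its neighbour mmu-miR-29b-3p was a lowered DEM (log2 fold change -1.24, edgeR FDR = 0.00122; -0.12 with library totals). mmu-miR-129-5p was a raised DEM (1.16, edgeR FDR = 0.00188; 2.28 with library totals). Both mmu-miR-29b-3p and mmu-miR-129-5p are encoded by 2 hairpins at different places, so their reads cannot be assigned to the one on chromosome 6. Of the 2 remaining rows, mmu-miR-29a-5p was at -0.57 and not a DEM, and mmu-miR-29b-1-5p was too low to be tested in TAA vs control and was a raised DEM in recovery vs TAA (1.38), on 20 reads in TAA and 36 in recovery livers. In that comparison it was not a DEM with library totals (0.53) or with DESeq2 (1.47). The neighbouring rows thus did not share one direction with the cluster when scaled by TMM.

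Finally, the rows whose levels most resembled the mean of the 3 arms were listed by Pearson's r of log2(CPM + 1) over the 9 livers, among 223 other rows with a mean of at least 10 CPM. They were mmu-let-7i-5p (r = 0.987), mmu-miR-218-5p (0.984), mmu-miR-199a-5p (0.972), mmu-let-7e-5p (0.969) and mmu-miR-146b-5p (0.966). The r follows shape and not size, and with 9 livers in 3 groups it mostly reflects TAA livers above the others. Accordingly the log2 fold changes in TAA vs control spread from 0.32 for mmu-let-7e-5p to 4.40 for mmu-miR-218-5p. In each of the 5 rows TAA replicate 1 was the highest TAA liver, for example 432 CPM of mmu-miR-218-5p compared with 235 and 231 CPM. The selection by r over these same 9 livers favours rows with this peak, so that it is not a separate observation. None of the 5 was a row of the miR-200 family, and mmu-miR-199a-5p was a row of the stellate cell list.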

How the data were processed

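Small RNA of 9 mouse livers (3 per group, different mice) was analysed from the table of mature miRNAs that the authors deposited. Reads had been mapped by the authors with Bowtie (version 1.3.0) to the mouse genome mm10 and to miRBase. The deposited table holds a raw read count per row and a deposited TPM value, which equalled the count per 1000000 counts of its column within 5e-05. How reads that match several miRNAs were counted is not given in the sources used here. No column was left without a sample.

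Each pair of groups was tested on the counts with edgeR (version 4.0.16, R 4.3.3), with filterByExpr (minimum count 10), TMM factors, the quasi-likelihood F test without covariates and Benjamini-Hochberg adjustment over all tested rows. TMM factors were 0.738 to 0.887 for control and recovery libraries and 1.43 to 1.63 for TAA libraries. The SE was the log2 fold change divided by the square root of F. Ratios within a library used an exact permutation test, adjusted within each family of comparisons. The edgeR procedure was tested on simulated data with equal numbers of raised and lowered rows, which does not test the scaling between libraries. Replicates of a group had Pearson's r of at least 0.979 for log2(TPM + 1) across rows, and no pair was alike within sampling noise.

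Named rows are the members, rows that share a seed with a 5p arm, rows within 2000000 bases and the 5 most similar profiles. The highest and lowest row of each marker list in TAA vs control are also named. Rows that make up most of the miR-200, stellate cell or other epithelial sum, and miR-200 rows too low to be tested, were named after their values were seen. The members and lists were chosen with earlier results of these data known. Alternatives were DESeq2 (version 1.42.0), limma (version 3.58.1) on log2(TPM + 1) and log2(TPM + 0.1), other scalings and filters, all 9 samples in 1 fit, a table without the rows mmu-miR-122b-3p and mmu-miR-122-5p, a replicate block, and removal of each replicate. Alternatives for the marker lists were added after the data were seen. Sequences and positions were taken from RefSeq (GRCm38.p6) and GENCODE M21.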

Additional observations from a re-analysis of the deposited data

How the results depend on the processing

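Each of the 3 5p arms kept its direction and its side of the thresholds, raised by TAA and lowered in recovery vs TAA, under all 10 alternatives with all samples and with each replicate left out. In recovery vs control no arm became a DEM under any of them. The log2 fold changes over these alternatives ran from 1.36 to 2.96 in TAA vs control and from -2.76 to -1.37 in recovery vs TAA. The highest sizes came from library totals and the lowest from leaving out TAA replicate 1. In a fit with a replicate block, 3, 3 and 0 members were called in the 3 comparisons. Without TAA replicate 2 the lowered members in recovery vs TAA were 4, with mmu-miR-182-3p added, compared with 3 without any other replicate. Samples with the same number were different mice, whose deviations from the group means correlated between -0.241 and 0.242. For samples with different numbers the range was -0.297 to 0.244. Whether samples of the same number shared a batch was not tested. The blocked log2 fold changes of mmu-miR-183-5p were 1.82, -1.78 and 0.10.

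The number of DEMs over all rows depended more on the settings than the calls of the members. In the order TAA vs control, recovery vs TAA, recovery vs control it was 175, 109 and 44. With a mean of at least 10 CPM it was 80, 61 and 13, of fewer rows tested, and with library totals 245, 207 and 49. The cluster to miR-200 and cluster to hepatocyte ratios moved by more than the spread between replicates when the mean of log2(count + 1) replaced the sum. In the same order the former became -0.25, -0.33 and -0.58, and the latter became 2.98 and -2.85 in the first and second comparisons. With library totals, 0 of 6 hepatocyte rows were lowered DEMs in TAA vs control. Of the list of other epithelial or sensory miRNAs, 0 rows were lowered DEMs in TAA vs control or raised DEMs in recovery vs TAA. Its raised DEMs in the former went from 2 to 5 and its lowered DEMs in the latter from 2 to 6. Over all tested rows, raised DEMs in the former went from 105 to 241 and lowered DEMs in the latter from 64 to 203. The planned ratios of 5p to 3p arms were not run because 3p counts were 0 in several libraries. Depth limits the 3p arms, with 48 reads in all.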

Other observations

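A further list held miRNAs of other epithelia and of sensory and endocrine cells, the kinds of cell in which the miR-183 cluster is also known. All 10 of its rows were in the table and 8 were tested in TAA vs control, of which 2 were raised DEMs, 1 was a lowered DEM and 5 were not called, compared with 25% raised and 16.7% lowered DEMs among all tested rows. The median log2 fold change was 0.04, compared with 0.11 for all tested rows. mmu-miR-34c-5p, known from multiciliated cells, was at 7.45 ± 1.33 CPM in control, 50.3 ± 10.9 CPM in TAA and 10.5 ± 1.34 CPM in recovery livers (mean ± SD, n = 3; log2 fold change 2.67, edgeR FDR = 0.000114 in TAA vs control, and -2.28, edgeR FDR = 0.000429 in recovery vs TAA). mmu-miR-203-3p, known from the outer layers of the skin, was at 1061 ± 178 CPM in control, 375 ± 47.6 CPM in TAA and 1053 ± 12 CPM in recovery livers, a lowered DEM in TAA vs control (-1.59, edgeR FDR = 0.000248). With library totals its log2 fold change was -0.48 and it was not a DEM. With TMM 4 of the 8 rows were above 0 and 4 below. With library totals 7 were above 0, 5 were raised DEMs and none a lowered one (median log2 fold change 1.15). Under that scaling 241 of all 420 tested rows were raised DEMs, 4 were lowered and the median was 1.23.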
